A study of Mus musculus with 16 samples.

Results

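The fibroblast growth factor homologous factors (FHFs) are the 4 genes *Fgf11*, *Fgf12*, *Fgf13* and *Fgf14*, also called *Fhf3*, *Fhf1*, *Fhf2* and *Fhf4*. They were chosen by family membership, from 19938 genes with a probe set of their own among the 35556 probe sets of an Affymetrix Mouse Gene 1.0 ST array. The rule would have selected on mean signal between probe sets of the same gene, but each FHF gene had exactly 1, so no signal decided between probe sets. The family itself was picked with earlier results of these data known. No probe set of several genes named an FHF gene. RNA came from tooth germs of wild-type C57Bl6 mouse embryos at E14.5, in 8 samples of mandibular first molars, 4 of maxillary first molars and 4 of lower incisors, all microdissected and each a pool of 4 germs. No sample was treated, and embryo sex is not given in the sources used here, nor which animals a pool came from, so p-values measure the spread between these pools. Values are RMA signals on the log2 scale, where a difference of 1 is a 2-fold change, and levels of different probe sets are not set against each other.

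FHFs share the core fold of fibroblast growth factors but lack a signal peptide and stay inside the cell. In neurons and heart muscle they bind the cytoplasmic tail of the alpha subunits of voltage-gated sodium channels and change how these channels inactivate and where they are placed. They also bind the scaffold protein islet-brain 2, encoded by *Mapk8ip2*, which assembles kinases of the JNK pathway, and *Fgf13* protein binds microtubules in growing neurons. The secreted ligands, in contrast, carry signals between dental epithelium and mesenchyme through receptors at the cell surface.

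In the assembly GRCm38.p6 all 4 genes lie on the minus strand of different chromosomes. *Fgf11* is compact, spanning 6.9 kb at chr11:69796068-69802944. The other members are long, *Fgf12* with 595.5 kb at chr16:28157783-28753243, *Fgf13* with 523.4 kb at chrX:59062139-59585572 and *Fgf14* with 703.2 kb at chr14:123974441-124677686. *Fgf14* is the last of its chromosome's protein-coding genes in the annotation, and its 3′ end overlaps that of *Itgbl1*, on the opposite strand, by 4425 bp (chr14:123974441-123978865). RefSeq promoter windows were given for 4 starts each of *Fgf12* and *Fgf13* and for 1 start each of *Fgf11* and *Fgf14*. The bases upstream of a start are shown for *Fgf12* and *Fgf14*, the pair whose signals were higher in mandibular molars than in incisors. Each stretch is 250 bases long, reads 5′ to 3′ on the minus strand and ends at the base before the start: for *Fgf12* the outermost start (chr16:28753244-28753493) and for *Fgf14* the only listed one (chr14:124192547-124192796), which lies inside the annotated gene. Capitals mark matches to CCAAT or GGGCGG on either strand, so ATTGG and CCGCCC are capitals too.
Fgf12: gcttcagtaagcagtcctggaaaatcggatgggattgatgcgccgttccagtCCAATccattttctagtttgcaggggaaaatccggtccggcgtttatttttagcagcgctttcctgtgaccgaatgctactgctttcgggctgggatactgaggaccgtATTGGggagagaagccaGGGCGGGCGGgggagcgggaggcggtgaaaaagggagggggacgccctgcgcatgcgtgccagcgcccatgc
Fgf14: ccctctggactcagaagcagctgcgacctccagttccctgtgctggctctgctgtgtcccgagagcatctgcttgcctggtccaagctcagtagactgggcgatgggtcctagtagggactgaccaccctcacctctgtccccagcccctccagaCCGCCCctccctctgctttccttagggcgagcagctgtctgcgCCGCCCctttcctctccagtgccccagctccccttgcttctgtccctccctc

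The *Fgf12* stretch held 2 matches to CCAAT and 2 overlapping matches to GGGCGG, and the *Fgf14* stretch 2 matches to GGGCGG and none to CCAAT. Among 32851 RefSeq windows of the same length, 33.8% held CCAAT and 32.7% GGGCGG. A further 4 motifs were searched on both strands, the TATA box as TATAAA, an E-box as CACGTG, the homeodomain core TAATTA and the cAMP response element TGACGTCA. They were present in 12.4%, 6.02%, 4.84% and 1.55% of all windows, and these letters were in none of the 10 windows of FHF genes. The *Fgf12* stretch was rich in CpG, with an observed over expected ratio of 0.887 at 58.4% GC, while that of *Fgf14* had a ratio of 0.298 at 64.0% GC. The medians over all windows were 0.373 and 52.4%. Which start was in use in tooth germs was not measured by these arrays, since 1 probe set summarised each gene.

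Signals of all 4 members lay above the log2 filter of 5 in all 16 samples. The sample medians of all probe sets lay between 6.80 and 6.99. All 7 epithelial and all 7 dental mesenchyme markers with a probe set lay above 5 in every sample, as did 76.1% to 79.2% of all probe sets in a sample, so the markers' presence does not tell the tooth types apart. The samples were also placed in sets that the labels do not name. This placement came from an earlier reading of these data and was not derived anew here. The first sample set is formed by lower incisors and mandibular molars 1 to 4, the second by mandibular molars 5 to 8 and the maxillary molars. What distinguishes the sets is not given in the sources used here. Each comparison of the FHF genes is therefore also given within a set where a set holds both groups, and for other genes where the sets change a call. The test was limma with Benjamini-Hochberg adjustment over all probe sets tested, and passing required both an adjusted p under 0.1 and more than a 1.2-fold difference.

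**Figure D1:**
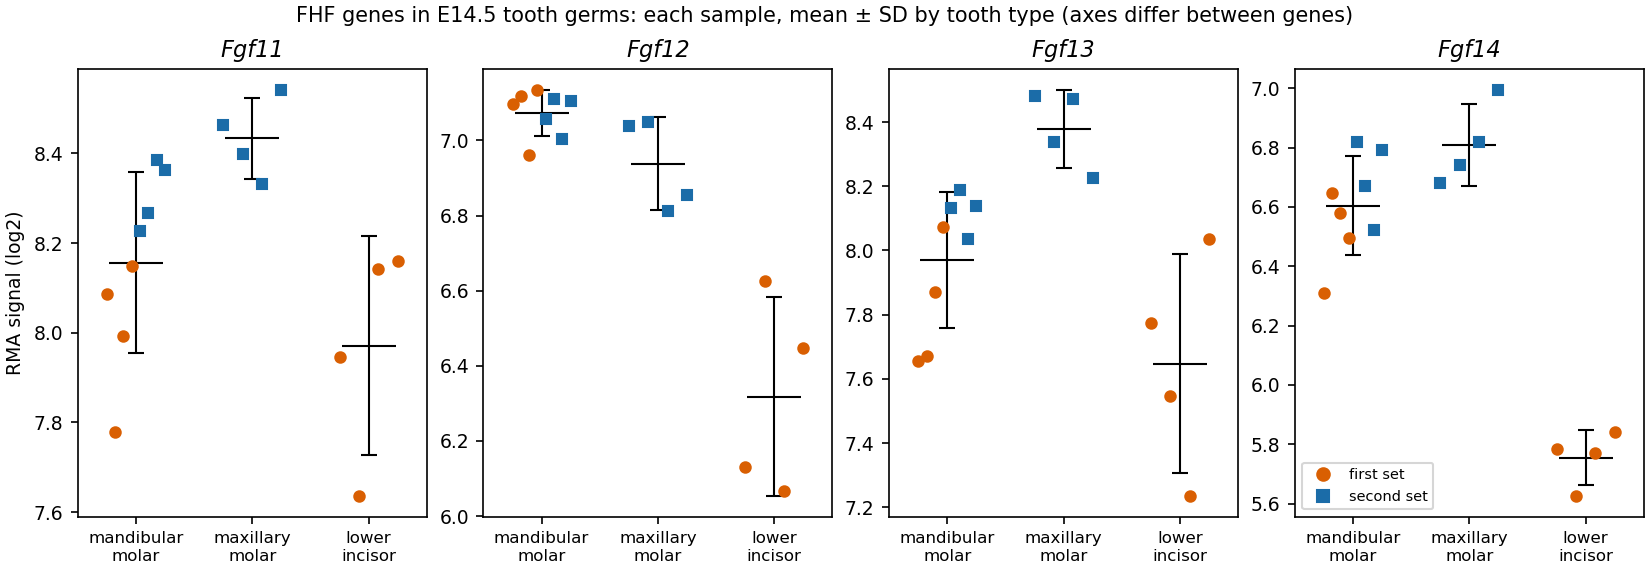
RMA signal on the log2 scale (vertical axis, a different range for each gene) of the 4 FHF genes in each sample, by tooth type. Circles are the first sample set and squares the second, and black bars give the mean ± SD. All 8 mandibular and all 4 maxillary molar samples of *Fgf12* and *Fgf14* lie above all 4 lower incisor samples.

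The first question was which FHF genes differ between mandibular molars and lower incisors. *Fgf12* and *Fgf14* were higher in molars, by 1.69-fold and 1.80-fold, and *Fgf11* and *Fgf13* did not pass. Thus 2 of 4 members were higher and 0 lower, where 2.75% of 29258 probe sets were higher and 2.18% lower. Neither exceeded a fold change of 2, which 0.284% of probe sets did in this direction. The study that made these arrays left out 1 incisor sample and reported *Fgf12* above a fold change of 2. It also found *Fgf12* higher in molars by qRT-PCR on separate RNA samples. The median log2 fold change of the 4 members was 0.54, beside 0.00 over the 17309 genes tested.

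*Fgf12*, whose protein binds the islet-brain 2 scaffold, had the most even signal of the 4 members among mandibular molars. These 8 samples ran from a low of 6.96 over a median of 7.10 to a high of 7.14, while the incisors had 6.13, 6.63, 6.07 and 6.45. The groups were 0.34 apart at their nearest samples. Incisors 2 and 4 were the higher ones, and the molars spread less than the incisors (SD 0.06, n = 8, in molars against 0.26, n = 4, in incisors). The log2 fold change of *Fgf12* was 0.76 (standard error 0.09, limma adjusted p = 0.000471).

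*Fgf14*, mutated in a human form of inherited ataxia, had mandibular molar signals from 6.31 over a median of 6.61 to 6.82. In lower incisors the signals were 5.78, 5.62, 5.77 and 5.84, not far above the filter of 5. No molar sample reached down to the incisors, and the nearest ones were 0.47 apart. The log2 fold change of *Fgf14* was 0.85 (standard error 0.09, limma adjusted p = 0.000142). No overlap with a higher signal in molars was seen for 1.92% of all probe sets and for these 2 of 4 members.

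*Fgf13*, the X-linked member, had 7.66 to 8.19 in mandibular molars with a median of 8.05, and 7.77, 7.55, 7.23 and 8.04 in incisors. The groups overlapped, and incisors 1 and 4 lay within the range of the molars. Its log2 fold change was 0.32 (95% confidence interval 0.01 to 0.64, limma adjusted p = 0.263). Without incisor 4 this value was 0.45 and passed (limma adjusted p = 0.094). Without incisor 3 it was 0.19 and did not (limma adjusted p = 0.636). *Fgf11* had 7.78 to 8.39 with a median of 8.19 in mandibular molars and 7.95, 7.63, 8.14 and 8.16 in incisors. Only 4 of 8 molar samples lay above the highest incisor, and the log2 fold change was 0.19 (95% confidence interval -0.08 to 0.45, limma adjusted p = 0.433).

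Within the first sample set, that is with mandibular molars 1 to 4 alone, the same pair was higher. *Fgf12* differed by 0.76 (limma adjusted p = 0.0288) and *Fgf14* by 0.75 (limma adjusted p = 0.0059), while *Fgf13* differed by 0.17 and *Fgf11* by 0.03, neither of which passed. In that comparison 0.948% of probe sets were higher, and 2.95% were higher without overlap, among them *Fgf12* and *Fgf14*. The fit of all 16 samples with sample set as a term also called *Fgf12* and *Fgf14* and neither of the others, with 1.88% of probe sets higher.

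Whether the members differed from one another in this comparison was tested on the difference between 2 members in each sample, with an exact permutation test over the 495 arrangements of the samples. Both comparisons of tooth types together held 12 such pairs, over which p-values were adjusted. The log2 fold change of *Fgf14* exceeded that of *Fgf11* by 0.66 (raw p = 0.00202, the smallest the design allows, adjusted p = 0.0121, two-sided exact test) and that of *Fgf13* by 0.53 (raw p = 0.00808, adjusted p = 0.0242, exact). That of *Fgf12* exceeded *Fgf11* by 0.57 (raw p = 0.0141, adjusted p = 0.0339, exact) and *Fgf13* by 0.43 (raw p = 0.0283, adjusted p = 0.0485, exact). The differences between *Fgf12* and *Fgf14*, of -0.09, and between *Fgf11* and *Fgf13*, of -0.14, did not pass (adjusted p = 0.572 and 0.528, exact). Within the first set the first 4 of these differences were 0.72, 0.58, 0.73 and 0.59, with raw exact p-values of 0.0286, 0.0571, 0.0857 and 0.0571 where the smallest possible one was 0.0286.

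**Figure D2:**
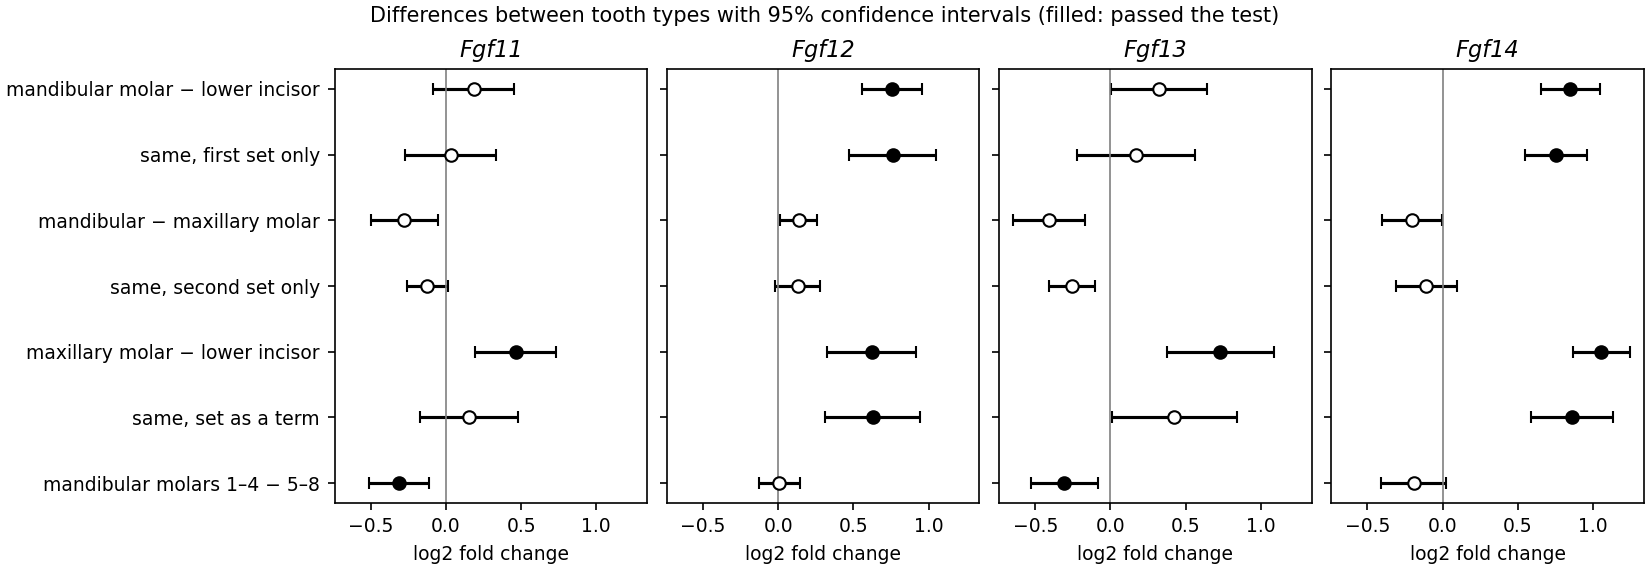
Log2 fold change (horizontal axis) of each FHF gene for 7 comparisons, with 95% confidence intervals from limma. Filled circles passed the test. *Fgf12* and *Fgf14* are filled in all 4 comparisons of a molar type with incisors, and the mandibular over maxillary molar differences are open for every member.

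Mandibular and maxillary molars, the same tooth in the lower and upper jaw, were compared next. No member passed, where 1.01% of 29068 probe sets were called higher in the mandibular samples and 1.18% lower. *Fgf13*, *Fgf11* and *Fgf14* had lower signals in mandibular molars on average, and *Fgf12* a higher one. All 4 were at an unadjusted p under 0.05 in limma, as were 17.1% of all probe sets.

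All mandibular samples of *Fgf13* were at 8.19 or below, and the maxillary samples had 8.48, 8.34, 8.47 and 8.23. The groups thus lay 0.04 apart at their nearest samples, a lack of overlap in this direction that 2.02% of probe sets shared. The log2 fold change of *Fgf13* was -0.41 (standard error 0.11, limma adjusted p = 0.101), just outside the threshold. It passed without mandibular molar 6 (-0.44, limma adjusted p = 0.0852) or mandibular molar 8 (-0.43, limma adjusted p = 0.0923). In the other 10 of 12 fits without 1 sample it did not pass, with a limma adjusted p up to 0.308, without maxillary molar 1. With sample set as a term in the fit of all 16 samples *Fgf13* had -0.26 (limma adjusted p = 0.751). No member passed in that fit, where 0.960% of probe sets did in either direction. *Fgf11* reached 8.39 in mandibular molars and had 8.46, 8.40, 8.33 and 8.54 in maxillary molars, with 6 of 8 mandibular samples below all maxillary ones and a log2 fold change of -0.28 (standard error 0.10, limma adjusted p = 0.222). *Fgf14* reached 6.82 in mandibular molars and had 6.68, 6.74, 6.82 and 7.00 in maxillary molars. The groups overlapped, with a log2 fold change of -0.20 (standard error 0.09, limma adjusted p = 0.288). *Fgf12* had at least 6.96 in mandibular molars and had 7.04, 7.05, 6.81 and 6.85 in maxillary molars, with 6 of 8 mandibular samples above all maxillary ones and a log2 fold change of 0.14 (standard error 0.06, limma adjusted p = 0.269).

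In the second sample set alone, with mandibular molars 5 to 8, the differences were -0.26 for *Fgf13*, -0.12 for *Fgf11*, -0.11 for *Fgf14* and 0.13 for *Fgf12*. None passed there, where 1.28% of probe sets did in either direction. *Fgf13* again did not overlap between the jaws, as was the case for 3.48% of probe sets lower in mandibular molars. The sizes of these differences were compared between members as before. For *Fgf12* the mandibular over maxillary difference exceeded that of *Fgf13* by 0.54 (raw p = 0.00202, adjusted p = 0.0121, exact), that of *Fgf11* by 0.41 (raw p = 0.00606, adjusted p = 0.0242, exact) and that of *Fgf14* by 0.34 (raw p = 0.0182, adjusted p = 0.0364, exact). Within the second set these values were 0.39, 0.25 and 0.24 (raw exact p = 0.0286, 0.0571 and 0.143).

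Maxillary molars and lower incisors complete the order of levels, but they lie in different sample sets. All 4 members were higher in maxillary molars, where 14.4% of 29075 probe sets were higher and 15.9% were higher without overlap, as all 4 members were. *Fgf14* differed by 1.05 (standard error 0.08, limma adjusted p = 0.000163), a 2.08-fold change that exceeded 2, as 1.08% of probe sets did. *Fgf13* differed by 0.73 (limma adjusted p = 0.0119), *Fgf12* by 0.62 (limma adjusted p = 0.0108) and *Fgf11* by 0.46 (limma adjusted p = 0.0222). With sample set as a term in the fit of all 16 samples, 2 of 4 members passed, where 1.55% of probe sets were higher. These were *Fgf14* with 0.86 (limma adjusted p = 0.00172) and *Fgf12* with 0.63 (limma adjusted p = 0.039). *Fgf13* had 0.43 (limma adjusted p = 0.402) and *Fgf11* 0.15 (limma adjusted p = 0.774) in that fit.

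The mandibular molars themselves were split by label number, a split known from an earlier reading of these data. Its differences and p-values therefore do not measure ordinary variation within 1 tooth type. *Fgf11* was lower in samples 1 to 4 than in samples 5 to 8 by 0.31 on the log2 scale (limma adjusted p = 0.0664), and these samples did not overlap. *Fgf13* was lower by 0.31 as well (limma adjusted p = 0.0911). *Fgf14*, at -0.19 (limma adjusted p = 0.231), and *Fgf12*, at 0.01 (limma adjusted p = 0.945), did not pass. Of all probe sets 7.29% were lower in this split and 11.4% were lower without overlap. Both calls were lost without mandibular molar 2, 3, 5, 6, 7 or 8, and that of *Fgf13* also without mandibular molar 1.

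The mean signals gave the following order. *Fgf14* averaged 6.60 ± 0.17 in mandibular molars, 6.81 ± 0.14 in maxillary molars and 5.75 ± 0.09 in lower incisors (SD, n = 8, 4 and 4, here and below). *Fgf12* averaged 7.07 ± 0.06, 6.94 ± 0.12 and 6.32 ± 0.26 in the same order of teeth. For both genes the incisors stood below the molars of either jaw, and the neighbouring molar levels did not differ beyond the test. *Fgf13* averaged 7.97 ± 0.21, 8.38 ± 0.12 and 7.65 ± 0.34, and *Fgf11* 8.16 ± 0.20, 8.43 ± 0.09 and 7.97 ± 0.24. For these genes no neighbouring levels passed, and the step from incisors to maxillary molars did so only without the set term.

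The other genes of the FGF system and of FHF partners were counted from fixed lists. Of 18 secreted FGF ligands 3 were higher in mandibular molars than in incisors and 0 lower. *Fgf20*, an enamel knot ligand, differed by 1.08, *Fgf4*, another enamel knot ligand, by 0.97 and *Fgf7*, a mesenchymal ligand, by 0.39. The median of the 18 ligands was 0.00, against 0.54 for the FHF genes. *Fgf20*, *Fgf4* and *Fgf7* were not in the study's list of FGF genes for these teeth. *Fgf22*, which that list gave as higher in incisors, differed by -0.18 here and did not pass (limma adjusted p = 0.205). Within the first set *Fgf20* passed (1.19, limma adjusted p = 0.00181), and *Fgf4* (0.87, limma adjusted p = 0.16) and *Fgf7* (0.45, limma adjusted p = 0.189) did not. Among 7 receptors and co-receptors none passed. *Fgfr1* differed by -0.22 and *Fgfr2* by -0.09. With sample set as a term *Fgf16* was a further higher ligand (0.47, limma adjusted p = 0.0523), and *Fgfr1* was lower by 0.34 (limma adjusted p = 0.00725). Between the jaws *Fgf18* was higher in mandibular molars by 0.59 and the receptor gene *Fgfr4* by 0.63, the only ones of these lists to pass there. Both also passed within the second set (0.47, limma adjusted p = 0.0976, and 0.41, limma adjusted p = 0.0676), but 0 of 18 ligands and 0 of 7 receptors did so with sample set as a term. For the jaws the study listed *Fgfr4* and *Fgf16* as higher in mandibular molars, and not *Fgf18*. *Fgf16* differed by 0.32 here and did not pass (limma adjusted p = 0.24).

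Sodium channel alpha subunits, the targets of FHF proteins, showed 0 higher and 0 lower of 7 tested between mandibular molars and incisors, with 1 more below the filter and 2 without a probe set of their own. *Scn1a*, named after its values were seen, missed on fold alone, with a log2 fold change of 0.25 (limma adjusted p = 0.0159) that is 1.19-fold. With sample set as a term 1 of 7 was higher, *Scn3a* by 0.35 (limma adjusted p = 0.0792), and in maxillary molars over incisors 2 of 7 were higher, *Scn1a* and *Scn3a*, with or without that term. *Scn3a*, the alpha subunit typical of embryonic neurons, had 5.47 ± 0.24, 5.77 ± 0.11 and 5.28 ± 0.05 in mandibular molars, maxillary molars and incisors. Its log2 fold changes of 0.19 over incisors and -0.30 over maxillary molars did not pass, whereas within the second set it was lower than in maxillary molars by 0.46 (limma adjusted p = 0.0837), as it was with the set term (limma adjusted p = 0.0507). *Scn8a*, a main alpha subunit of mature axons, differed by 0.05 and -0.04 in the 2 comparisons. Of 3 beta subunits with a probe set only *Scn3b* passed, higher in mandibular molars than in incisors by 0.69 (limma adjusted p = 0.0939). It differed by 0.37 within the first set (limma adjusted p = 0.637), and mandibular molars 1 to 4 were lower in *Scn3b* than 5 to 8 by 0.64 (limma adjusted p = 0.0267).

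*Mapk8ip2*, the islet-brain 2 gene, had 6.44 ± 0.13, 6.36 ± 0.10 and 6.25 ± 0.09 in mandibular molars, maxillary molars and incisors, with log2 fold changes of 0.19 over incisors and 0.07 over maxillary molars that did not pass. None of the 9 JNK scaffold and kinase genes passed against incisors without a set term, and with it 1 did, *Mapk8ip2*, higher by 0.29 (limma adjusted p = 0.0246). Against maxillary molars *Mapk10*, the neuronal JNK, was lower by 0.66 (limma adjusted p = 0.00687), and by 0.57 within the second set (limma adjusted p = 0.0671). Calmodulin and other partners gave 0 of 4 in both comparisons. Of 7 axon initial segment genes none passed against incisors, and the adhesion gene *Nrcam* was lower than in maxillary molars by 0.40 (limma adjusted p = 0.0779), a call that neither the second set alone nor the set term gave, with 0 of 7 in each. Of 4 sex chromosome genes with a probe set, listed because *Fgf13* is X-linked, none passed in these comparisons. In maxillary molars over incisors 1 of the 4 was higher, where 14.4% of probe sets were, and 0 with sample set as a term.

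**Figure D3:**
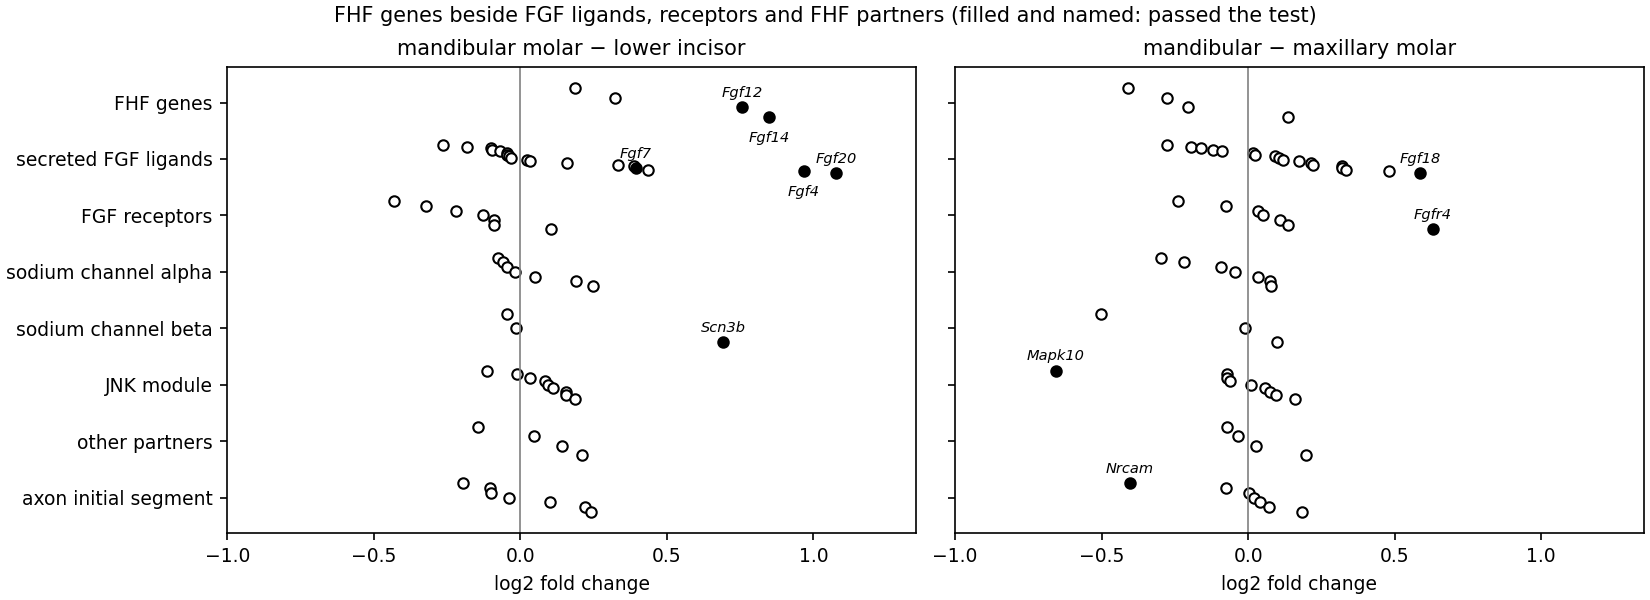
Log2 fold change (horizontal axis) of each tested gene of the FHF family, of the FGF ligands and receptors and of FHF partners, for mandibular molars over lower incisors (left) and over maxillary molars (right). Filled, named circles passed the test. *Fgf12*, *Fgf14*, *Scn3b* and 3 secreted ligands are filled on the left, and no FHF gene on the right.

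Because FHF genes are best known from neurons and muscle, markers of other cell types are given beside them. The mean log2 signal of 11 neuronal markers was 6.74 to 7.20 in mandibular molars, 6.66 to 6.77 in maxillary molars and 6.98 to 7.14 in lower incisors. Between mandibular molars and incisors 1 of them was higher, *Nefl* by 1.42, and 2 lower, *Stmn2* (-1.78) and *Gap43* (-0.45). Of 11 skeletal muscle markers 0 were higher and 5 lower in mandibular molars, with list means of 7.48 to 8.85 in mandibular molars, 6.61 to 7.10 in maxillary molars and 8.59 to 8.75 in incisors. Of 5 cartilage markers 4 were lower in mandibular molars, with list means of 7.22 to 7.43 in mandibular molars, 7.16 to 7.31 in maxillary molars and 7.49 to 8.94 in incisors. No marker of these 3 lists was at or below 5 throughout a tooth type, and their part in the FHF differences was not tested. Of 6 Schwann cell and glia markers with a probe set, *Cdh19* was at or below 5 in all samples, and of the 5 tested *Sox10* alone passed, lower by 0.36. Within the first set 1 of 11 muscle, 1 of 5 cartilage and 0 of 5 glial markers were lower, and with sample set as a term 3, 2 and 0, while 2 neuronal markers were higher and 1 lower in each. Fewer cells of a type and less RNA per cell cannot be told apart in these samples.

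In dental mesenchyme 2 of 7 markers were higher in mandibular molars than in incisors, *Lhx6*, a LIM homeobox gene, by 2.24 and *Pax9*, needed for teeth to pass the bud stage, by 1.14. No epithelial marker of 7 and no endothelial marker of 5 passed. Against maxillary molars *Pax9* was higher by 0.37, *Lhx6* lower by 0.51, and 9 of 11 muscle markers were higher, while no FHF gene passed. Within the second set 5 of 11 muscle markers and *Pax9* (0.38, limma adjusted p = 0.0391) were higher and *Lhx6* did not pass (-0.39, limma adjusted p = 0.113). With the set term 4 muscle markers were higher, and neither *Pax9* nor *Lhx6* passed.

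The protein-coding genes next to each member, 3 on each side, were counted too. Of 21 such genes 14 were tested between mandibular molars and incisors, of which 4 were higher and 1 lower. Only 3 protein-coding genes in the list stood beside *Fgf14*, all on 1 side, and all 3 were higher: *Itgbl1*, which encodes an integrin beta-like protein, by 2.00 (standard error 0.17, limma adjusted p = 2.1e-05), *Nalcn*, a sodium leak channel gene, by 0.76 (limma adjusted p = 0.000331) and *Tmtc4* by 0.41 (limma adjusted p = 0.000754). In the first set alone they were higher by 1.77, 0.70 and 0.41, and each passed. Between the jaws their differences were -0.36, -0.01 and 0.03, none of which passed. Beside *Fgf12*, *Mb21d2* was higher by 0.30 than in incisors, and beside *Fgf11*, *Chrnb1*, a subunit of the muscle acetylcholine receptor whose gene ends 102 bp away, was lower by 0.43. Neither of these passed within the first set. Between the jaws 1 of the 14 tested neighbours was higher in mandibular molars, *Ostn* beside *Fgf12*, by 1.05 (limma adjusted p = 0.0759). A further 1 was lower, *Mb21d2* by 0.28 (limma adjusted p = 0.0581), where 1.01% of all probe sets were higher and 1.18% lower. Within the second set 0 of 13 tested neighbours passed.

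A stretch from 3 Mb before the lower coordinate of *Fgf14* to the end of chromosome 14 was then taken, chosen after the neighbours' values were seen. It held 16 tested genes including *Fgf14*. The 4 at the end, *Tmtc4*, *Nalcn*, *Itgbl1* and *Fgf14*, were the higher ones, 0 were lower, and the other 12 did not pass. *Itgbl1* had 7.84 to 8.71 in mandibular molars, 8.67, 8.42, 8.42 and 8.60 in maxillary molars and 6.10, 6.18, 6.02 and 6.38 in incisors, and was again lowest in incisors without overlap. It was also the gene most like *Fgf14* among 17324 over the 16 samples (Pearson r = 0.97, 0.70 after subtraction of the mean of each tooth type). As the annotated genes overlap, and the probe positions are not given in the sources used here, whether signal of 1 gene reached the probe set of the other was not tested. *Nalcn* and *Tmtc4* end 347111 and 991156 bp from *Fgf14* and do not overlap it.

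**Figure D4:**
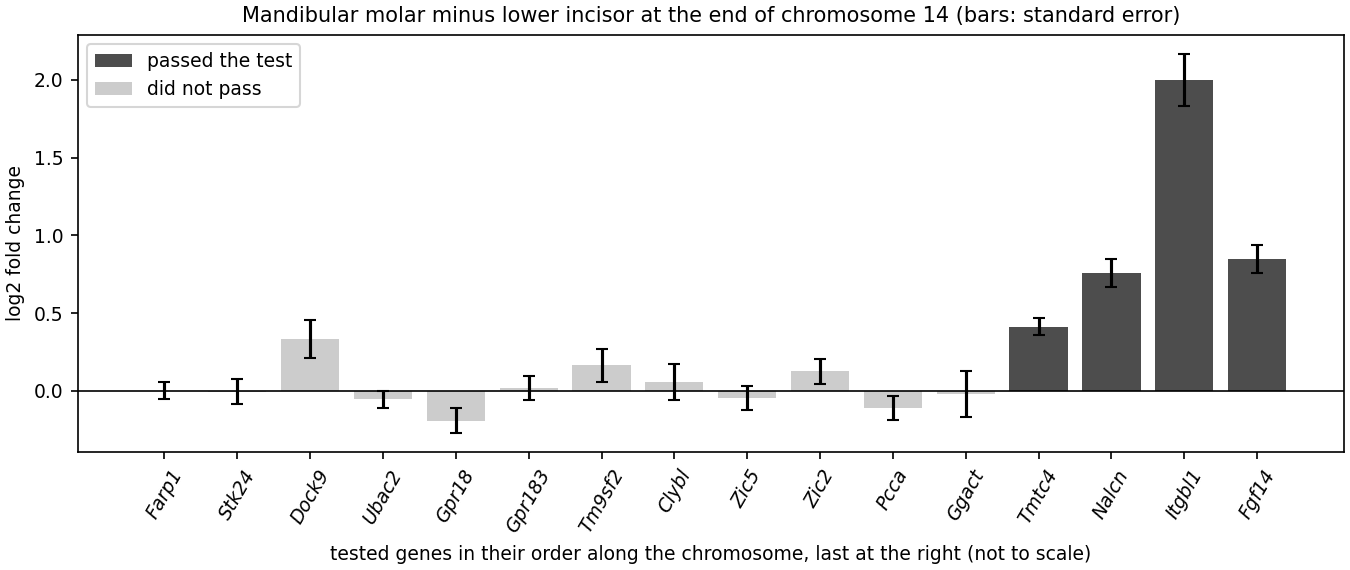
Log2 fold change of mandibular molars over lower incisors (vertical axis) for the tested protein-coding genes at the end of chromosome 14, in their order along the chromosome, with standard errors. Dark bars passed the test. The 4 dark bars stand together at the end, with *Itgbl1* at 2.00 and *Fgf14* at 0.85.

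Genes with the most similar signal over the 16 samples were also listed for the other members, as a description over samples that share tooth types and sets. For *Fgf12* these were *Prss12*, which encodes the neuronal protease neurotrypsin (Pearson r = 0.96), *Tenm1*, a teneurin adhesion gene (0.95), and *Chodl*, the chondrolectin gene (0.94). For *Fgf13* they were *Fads1*, a fatty acid desaturase gene (0.97), *Cntn1*, a contactin gene (0.97), and *Ociad1* (0.96), and for *Fgf11* *Slc25a23* (0.95), *Usp38* (0.95) and *Cnot6* (0.95). After *Itgbl1*, *Fgf14* was most like *Tmem30b* (0.96) and *Lhx6* (0.96). With the mean of each tooth type subtracted, the leading genes were others: *Pacs2*, *Ctdspl* and *Tmem63b* for *Fgf11* (0.94 to 0.96), *Dnaja1*, *Mrps11* and *F3* for *Fgf12* (0.85 to 0.86), *Cnnm4*, *Frzb* and *Lpcat3* for *Fgf13* (0.94 to 0.96), and *Slc12a9*, *Mustn1* and *Tnf* for *Fgf14* (0.85 to 0.88).

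Among the members themselves the signals of *Fgf12* and *Fgf14* had the highest correlation over the 16 samples (Pearson r = 0.78), followed by *Fgf11* and *Fgf13* (0.72), *Fgf13* and *Fgf14* (0.72), *Fgf11* and *Fgf14* (0.64) and *Fgf12* and *Fgf13* (0.52), with *Fgf11* and *Fgf12* lowest (0.28). After subtraction of tooth type means *Fgf12* and *Fgf14* had -0.26, and *Fgf11* and *Fgf13* had 0.42. These coefficients describe 16 samples of 3 tooth types and 2 sample sets and carry no test.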

How the data were processed

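RNA of 16 pools of 4 tooth germs was hybridised as biotinylated single-strand cDNA. The authors deposited log2 signals made by RMA (background correction, quantile normalization, median polish) in Affymetrix Expression Console 1.1, and these were used as they stood. Detection calls and raw intensities were not used here, so the number of arrays limits the precision. Probe sets were named through the platform annotation, with symbols updated to RefSeq of GRCm38.p6: 21789 probe sets had 1 gene symbol, 1621 several and 12146 none. RMA can compress small signals, and whether this affected fold changes near the filter was not tested.

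Probe sets above log2 5 in at least 1 compared sample entered 2-group fits with lmFit and eBayes (limma 3.58.1, R 4.3.3), without a block. A positive log2 fold change means higher in the first-named tooth type. The study left out 1 lower incisor sample that it does not name, so all 4 were used and each was left out in turn. Whether label numbers pair the samples was not settled, and they were not used in the main fits. Deviations of same-numbered samples correlated at 0.083 to 0.506 for mandibular molars with incisors. The range was 0.00381 to 0.339 for mandibular with maxillary molars and -0.0689 to 0.243 for maxillary molars with incisors. Differently numbered samples were not compared.

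Members and lists were chosen with earlier results of these data known, and *Fgf12* is among the genes that the study listed from these same samples. Named genes are the 4 members, up to 4 members of each list with the largest change among those that passed, *Scn3a*, *Scn8a*, *Mapk8ip2*, *Fgfr1* and *Fgfr2* whatever they showed, and for each member the 3 genes with the highest Pearson r. Markers in the other lists were named after their values were seen. The alternatives were no filter or a filter at 6, median centring, a second quantile normalization, array weights, trended robust variances, all tooth types in 1 fit, the set term, the methods' t-test, a replicate block and a fold change of 2. The limma fit of mandibular molars against incisors was run on simulated data with known changes. The simulated probe sets varied independently and had no sample sets, so that run cannot show how the sets affect the fits. Promoter windows are from RefSeq, GRCm38.p6. Figures and exact tests used Python 3.11.15.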

Additional observations from a re-analysis of the deposited data

How the results depend on the processing

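Between mandibular molars and incisors, *Fgf12* and *Fgf14* kept their direction and passed under every alternative except a fold change above 2, which left 0 members (0.76 and 0.85 on the log2 scale). Leaving out 1 sample gave 2 to 3 members, with *Fgf13* at 0.19 to 0.45. Array weights gave 4 members, with *Fgf11* at 0.29 (limma adjusted p = 0.0753) and *Fgf13* at 0.40 (limma adjusted p = 0.0474). The number of all probe sets called is given here for the replicate block alone. Other counts of members in this section are therefore not read as results about the family. Between mandibular and maxillary molars, 1 member, *Fgf13*, passed with a filter at log2 6 (-0.41, limma adjusted p = 0.0897) and with array weights (-0.33, limma adjusted p = 0.0514). Leaving out 1 sample gave 0 to 1 members, with *Fgf13* at -0.46 to -0.36. With the label number as a replicate block, 3 members passed in that comparison, *Fgf11* (-0.43), *Fgf13* (-0.56) and *Fgf14* (-0.30). Whether the numbers pair the samples was not settled. Mandibular molars 5 to 8 had no same-numbered partner, so mandibular molars 1 to 4 were set against maxillary molars of the other sample set. Over all probe sets 5832 were called with the block, against 635 without it. The replicate block changed no call of a member in the other comparisons. Between maxillary molars and incisors, the sample set as a term gave 2 members (*Fgf11* 0.15, *Fgf13* 0.43), and a fold change above 2 gave 1 (*Fgf11* 0.46, *Fgf12* 0.62, *Fgf13* 0.73). In the split of mandibular molars, 1 member passed with no filter, where *Fgf13* had a limma adjusted p of 0.101, and 0 after median centring, where *Fgf12* turned to -0.0095. Leaving out 1 sample gave 0 to 2 members there, with *Fgf12* at -0.0135 to 0.047. The causes of these changes were not tested. No member had another probe set, so that alternative was not run. Gene values and member counts were tallied together over all alternatives. Of these, 330 kept the direction and side of the threshold or stayed within 1.5 times the count. A further 23 lost a call, 10 gained one, 18 counts moved further and 4 values changed sign. *Fgf14* in incisors lay closest to the filter, where array signals bound a fold change least well.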
